A study of Mus musculus with 8 samples.

Results

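The constitutive proteasome and its activators were followed through 36 genes of the 46078 in the count table. The members were chosen by name: the 14 subunits of the 20S core (Psma1 to Psma7 and Psmb1 to Psmb7), 18 genes of the 19S cap (Psmc1 to Psmc6, Psmd1 to Psmd8 and Psmd11 to Psmd14), among them Psmd5, a chaperone of its assembly, and the 4 genes of the activators PA28 and PA200 (Psme1 to Psme4). All 36 were found in the table and all 36 passed the filter on low counts in each of the 6 comparisons.

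The proteasome is the protease that degrades ubiquitin-tagged proteins in the cytosol and nucleus. Its core is a barrel of alpha rings, which form the gate, and beta rings, of which Psmb5, Psmb6 and Psmb7 carry the catalytic sites. The cap binds ubiquitin chains, unfolds the substrate with its ATPases and feeds it into the core, while the activators open the gate without ATP. In cells exposed to interferons, the catalytic subunits can be replaced by Psmb8, Psmb9 and Psmb10, which makes the immunoproteasome, known for producing peptides for MHC class I.

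Poly(A) RNA was sequenced from BV-2 cells, an established line of mouse microglia, at passages 5 to 6. The study asked how a garlic extract and one of its compounds alter the response of these cells to lipopolysaccharide (LPS). Cells were kept without serum for 4 h and divided into 4 groups of 2 libraries. Control cells received solvent. LPS cells received 100 ng/mL LPS of the Escherichia coli F583 Rd mutant for 20 h. AGE+LPS cells received aged garlic extract (AGE) at 0.5% by volume, and FruArg+LPS cells 3 mM FruArg, an Amadori compound that glucose forms with arginine and that the extract contains, each added 1 h before the same LPS. No group received AGE or FruArg alone. The labels call the 2 libraries of a group biological replicates and place replicate 1 of each group in lane 3 and replicate 2 in lane 6. They do not say whether the cultures were separate, so the p-values measure only the spread between these libraries, which may be technical.

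Library totals were 2707500 and 8995052 counts for Control, 8720784 and 12069807 for LPS, 6795464 and 6669072 for AGE+LPS, and 4692715 and 5822113 for FruArg+LPS. A count of 3 equalled 1.11 CPM (counts per 1e+06 counts of the library) in Control replicate 1, the shallowest library, and 0.249 CPM in LPS replicate 2, the deepest. Genes with at least 1 count numbered 16341 and 18395 in Control, 18360.0 and 18728 in LPS, 17825 and 17428 in AGE+LPS, and 14607 and 17057 in FruArg+LPS. FruArg+LPS replicate 1 had the fewest, although Control replicate 1 was shallower. The lowest level of a member, 29.8 CPM, lay far above these limits, which cover counting error only. CPM values are scaled by trimmed mean of M-values (TMM) factors.

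The 10 markers of microglia and macrophages summed to 2822 and 3508 CPM in Control, 2319 and 2666 in LPS, 2023 and 2409 in AGE+LPS, and 2683 and 2856 in FruArg+LPS, with Ptprc the largest in CPM over all libraries. The sum was higher in Control than in LPS without overlap, and its part in the results was not tested. Markers of resting brain microglia were low: Cx3cr1 did not exceed 4.02 CPM, P2ry12 9.27 CPM and Tmem119 1.38 CPM in any library. The marker sums of astrocytes (4 genes), neurons (4), oligodendrocytes (4), T cells (3) and B cells (3) were at most 2.57, 1.87, 1.87, 0.152 and 0.276 CPM. In these bulk samples, fewer cells expressing a gene and less RNA per cell cannot be told apart.

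In Control cells the members spanned a wide range of levels per kb of transcript. Psmb6 was the highest at 724 CPM per kb, followed by the core subunits Psmb4 at 445 and Psma7 at 391 and the cap subunit Psmd8 at 375. The lowest were the activator Psme3 at 13.6 CPM per kb, Psma3 at 15.4, Psmd11 at 17.3 and Psme4 at 27.7. The median level was 155 CPM per kb over the core, 96.2 over the cap and 32.3 over the activators. In LPS cells these medians were 192, 130 and 93.5 CPM per kb. These levels leave out near-identical copies. With the counts of copies added, an alternative chosen after seeing the data, Psma3 was at 46.8 CPM per kb in Control and Psme2 at 123, and the medians were 155, 96.2 and 59.2 in Control and 237, 130 and 136 in LPS. Psme2 moved from rank 31 of 36 in Control to rank 19 in LPS without copies, and from 18 to 5 with them, and Psme1 from 24 to 14 and from 22 to 15.

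Summed over the 36 members, expression was 6706 and 7720.2 CPM in Control, 11363 and 11358 in LPS, 8748 and 9278 in AGE+LPS, and 8385 and 10036 in FruArg+LPS. With this TMM scaling both LPS libraries lay above all others, and both Control libraries lay below all others. As a percentage of all counts of a library the members made up 0.796 and 0.917 in Control, 1.04 and 1.02 in LPS, 0.902 and 0.918 in AGE+LPS, and 0.779 and 0.907 in FruArg+LPS. LPS was again the highest, but Control overlapped both co-treated groups and FruArg+LPS replicate 1 was the lowest. The 14 core genes summed to 2994 and 3358 CPM in Control, 5136 and 4987 in LPS, 3968 and 4098 in AGE+LPS, and 3831 and 4449.6 in FruArg+LPS. The 18 cap genes summed to 3417 and 3991 CPM in Control, 5597 and 5652 in LPS, 4348 and 4640.3 in AGE+LPS, and 4122 and 5005 in FruArg+LPS. Activators gave the smallest sum, 295 and 370.3 CPM in Control, 629 and 719 in LPS, 432 and 539.7 in AGE+LPS, and 433 and 582 in FruArg+LPS, and again the LPS libraries were the highest. Replicate 2 exceeded replicate 1 in 30 of 36 members in Control and in FruArg+LPS, and in 19 in LPS and in AGE+LPS. The members lie on 14 chromosomes, with 8 on chromosome 11, 5 on chromosome 14 and 5 on chromosome 2. Of the 36, 12 have a near-identical copy elsewhere (at least 95% identity over 200 bases or more), so their split of reads is uncertain. The copies held 25.6% of the summed reads for Psmd2, 13.3% for Psmb3, 9.97% for Psmc1, 7.77% for Psmb6 and 1.10% for Psmd11, and the shares of Psma3, Psma4, Psma5, Psme1 and Psme2 are given with the gene. The copies of Psma2 and Psmb5 are not in the count table. Neither are the copies AC114990.1 of Psmb3 and AC110212.1 of Psmc1, so the shares of Psmb3 and Psmc1 leave these out.

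The comparison of LPS with Control asked how the complex changed after the endotoxin. Of the 36 members, 15 rose and 0 fell by edgeR at a Benjamini-Hochberg adjusted p below 0.05, where 16.3% of the 12888 genes tested rose. Those were 6 of 14 core genes, 6 of 18 cap genes and 3 of 4 activators. At an unadjusted p below 0.05, 22 members were counted, all with positive values, against 41.4% of all genes in either direction. DESeq2 called the same 15, where 8.76% of its 21997 genes rose, which include 8038 without an adjusted p. All 36 members had a positive log2 fold change in the fit of this pair with TMM scaling, with a median of 0.57, against 0.02 over all genes tested, while Psme3 was negative in one fit of all 4 groups. The medians were 0.52 for the core, 0.57 for the cap and 1.06 for the activators. In 28 members both LPS libraries lay above both Control libraries, as in 31.6% of all genes tested, and in 0 members below, against 34.5%. Scaled by library size alone, 13 members lay above (18.2% of all genes) and 3 below (51.9%).

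The size of this count moved with the scaling and with the replicate block. The lane goes with the replicate number, so it cannot be told apart from any other difference between replicates. With library size scaling alone, which put the median of all genes tested at -0.40, 27 of 36 members were positive, 9 were negative and 5 rose (Psma5, Psmd5, Psmd11, Psme1 and Psme2), against a background of 9.59%. Over all genes that scaling called 1236 up and 3705 down, where TMM called 2106 up and 1839 down. With the replicate number as a block, 29 members rose against a background of 24.9%: 11 core, 15 cap and 3 activator genes. At a fold of at least 2 as well, 6 members rose, against 11.5% of genes. Within lane 3, LPS was above Control in 35 members, with a median log2 difference of 0.59, and within lane 6 in 33 members, with a median of 0.52, where 48.9% and 48.7% of all genes tested were above. Leaving out Control replicate 1 left 4 members called (Psma5, Psmd11, Psme1 and Psme2), where 10.3% of genes rose, and leaving out Control replicate 2 left 6, where 9.79% rose. Psma2, Psmd1 and Psme4 were not called without LPS replicate 2 either, and with Psmb7 not in one fit of all 4 groups.

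**Figure D1:**
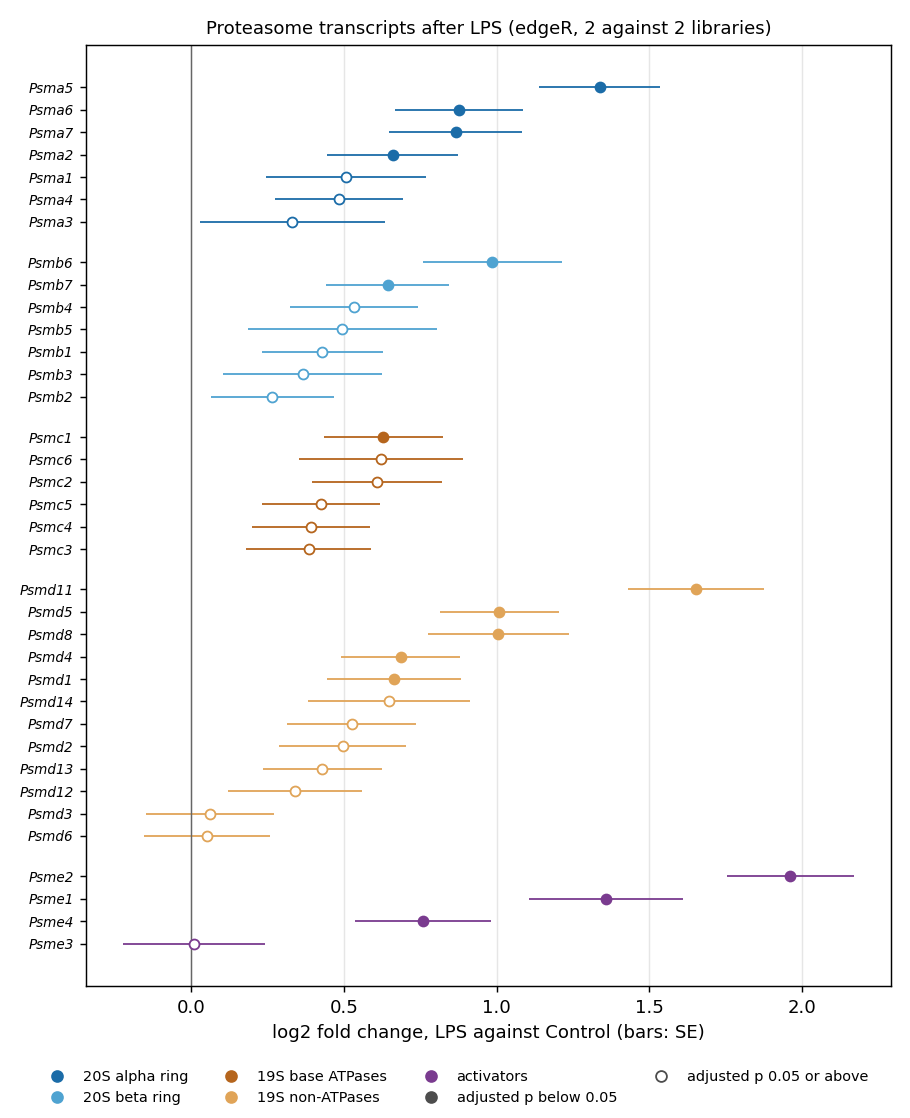
Log2 fold change of LPS against Control for each of the 36 members, grouped by their place in the complex, with its standard error. All 36 values lie above 0 in this fit of the pair with TMM scaling (27 with library size scaling), from 0.01 for Psme3 to 1.96 for Psme2.

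Among the activators, Psme1 and Psme2 encode the subunits of the cytosolic PA28 ring, which is known for its induction by interferon gamma. Psme2 (ENSMUSG00000079197, chr14:55587441-55591113, minus strand) was at 32.7 and 38.4 CPM in Control, 139.6 and 132 in LPS, 103 and 98.3 in AGE+LPS, and 94.7 and 129 in FruArg+LPS. Both LPS libraries lay far above both Control libraries, and all 4 co-treated libraries lay in between, apart from each of the other groups. Psme1 (ENSMUSG00000022216, chr14:55578123-55581529, plus strand) was at 61.0 and 102 CPM in Control, 206 and 205 in LPS, 117 and 114 in AGE+LPS, and 132 and 162 in FruArg+LPS. Its LPS libraries were the highest and its Control libraries the lowest, with no overlap between LPS and any other group. Psme2 rose by a log2 fold change of 1.96 (SE 0.21, adjusted p = 0.00016) by edgeR, and Psme1 by 1.36 (SE 0.25, adjusted p = 0.0033). The genes are neighbours on chromosome 14, 5911 bases apart on opposite strands.

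Psme2 has a near-identical copy, Psme2b, with 99.4% identity over 794 bases, which held 71.1% of the reads of the pair, so the split between them is uncertain. With the copy's counts added, an alternative chosen after seeing the data, Psme2 was at 102 and 134 CPM in Control, 483 and 501 in LPS, 318 and 368 in AGE+LPS, and 253 and 440.5 in FruArg+LPS. The summed gene rose with LPS by 2.09, and all 4 co-treated libraries again lay between Control and LPS. For Psme1 a pseudogene with 95.5% identity over 224 bases held 17.8% of the reads, and the log2 fold change with it added was 1.35.

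Psme4 encodes PA200, a nuclear activator linked to the breakdown of acetylated histones. Psme4 (ENSMUSG00000040850, chr11:30771726-30880361, plus strand) was at 171 and 189 CPM in Control, 249 and 345 in LPS, 179 and 281 in AGE+LPS, and 164 and 257 in FruArg+LPS. Both LPS libraries exceeded both Control libraries, while the co-treated groups overlapped LPS and Control. It rose with LPS by 0.76 (SE 0.22, adjusted p = 0.029) by edgeR. Psme3 encodes PA28 gamma, the nuclear relative of Psme1 and Psme2. Psme3 (ENSMUSG00000078652, chr11:101316213-101323537, plus strand) was at 30.8 and 41.7 CPM in Control, 34.7 and 37.1 in LPS, 32.4 and 46.4 in AGE+LPS, and 41.7 and 33.8 in FruArg+LPS. All groups overlapped, and the log2 fold change of LPS against Control was 0.01 (SE 0.23, adjusted p = 0.98) by edgeR and -0.41 with library size scaling.

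In the beta ring 2 of 7 genes rose, Psmb6 and Psmb7. Psmb6, the caspase-like site of the core (ENSMUSG00000018286, chr11:70525367-70527858, plus strand), was at 576 and 580.1 CPM in Control, 1257 and 979 in LPS, 1044 and 874 in AGE+LPS, and 976 and 1079 in FruArg+LPS. Every LPS and co-treated library lay above both Control libraries, and both co-treated groups overlapped LPS. Psmb7, the trypsin-like site (ENSMUSG00000026750, chr2:38588036-38644087, minus strand), was at 193 and 231 CPM in Control, 315 and 332 in LPS, 219 and 278 in AGE+LPS, and 204 and 255 in FruArg+LPS. Its LPS libraries were above all others, and the co-treated libraries overlapped Control. Log2 fold changes of LPS against Control by edgeR were 0.99 (SE 0.23, adjusted p = 0.010) for Psmb6 and 0.64 (SE 0.20, adjusted p = 0.037) for Psmb7. Psmb7 shares 405 exon bases with Nek6 on the other strand, and strand use in the counting was not given in the sources used here.

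Psmb5, the chymotrypsin-like site (ENSMUSG00000022193, chr14:54614119-54618022, minus strand), was at 106 and 87.2 CPM in Control, 177 and 87.9 in LPS, 185 and 105 in AGE+LPS, and 142 and 193 in FruArg+LPS. In LPS and in AGE+LPS replicate 1 was high and replicate 2 was near the Control values, and both groups overlapped Control. Its log2 fold change of LPS against Control was 0.50 (SE 0.31, edgeR adjusted p = 0.26, and with the replicate block 0.40, adjusted p = 0.048, range over the alternatives 0.0016 to 0.86). Without LPS replicate 1 the value was -0.085. The other 4 beta genes, which have no catalytic site, ranged from 0.27 for Psmb2 to 0.53 for Psmb4 and were not called. Psmb1 and Psmb4 rose with the replicate block, by 0.43 and 0.53, with edgeR adjusted p = 0.018 and 0.0037. With library size scaling Psmb2 and Psmb3 were negative.

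In the alpha ring 4 of 7 genes rose: Psma2, Psma5, Psma6 and Psma7. Psma5 (ENSMUSG00000068749, chr3:108256926-108279974, plus strand) had the largest value, at 85.9 and 94.4 CPM in Control, 231 and 214 in LPS, 115 and 122 in AGE+LPS, and 133 and 146 in FruArg+LPS. LPS stood apart above every other group, and both co-treated groups lay above Control without overlap. It rose with LPS by 1.34 (SE 0.20, adjusted p = 0.00095) by edgeR. The values for Psma6, Psma7 and Psma2 were 0.88, 0.87 and 0.66, with edgeR adjusted p = 0.012, 0.015 and 0.043. Psma5 shares reads with 2 processed pseudogenes, which held 43.1% of the summed reads, and its log2 fold change with them added was 1.31.

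Without copies, the lowest value in the alpha ring belonged to Psma3 (ENSMUSG00000060073, chr12:70974621-70996347, plus strand), at 33.3 and 54.5 CPM in Control, 41.4 and 67.6 in LPS, 29.8 and 54.4 in AGE+LPS, and 49.1 and 39.9 in FruArg+LPS. All groups overlapped, and replicate 2 exceeded replicate 1 in 3 of the 4 groups. Its log2 fold change of LPS against Control was 0.33 (SE 0.30, adjusted p = 0.45) by edgeR, -0.094 with library size scaling and 0.50 with the counts of its 4 near-identical copies added, which held 68.8% of the reads. With copies added, Psma3 was at 118 and 149 CPM in Control and 161 and 206 in LPS, without overlap. It was then not called by edgeR (adjusted p = 0.12) but rose with the block as well (edgeR adjusted p = 0.0065). The lowest value in the ring with copies was that of Psma4, 0.48. Psma4, with 33.8% of reads in a copy, and Psma1 were not called, at 0.48 and 0.51. Both rose with the block, by 0.48 and 0.50, with edgeR adjusted p = 0.013 and 0.0052.

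The 6 ATPases of the cap base unfold the substrate, and 1 of them, Psmc1, rose by edgeR, while with the replicate block all 6 rose. Psmc1, whose tail docks into the alpha ring and opens the gate (ENSMUSG00000021178, chr12:100110154-100123405, plus strand), was at 210.0 and 234 CPM in Control, 333 and 337 in LPS, 229 and 263 in AGE+LPS, and 270.3 and 283 in FruArg+LPS. The LPS libraries were close together and above all others. Its log2 fold change was 0.63 (SE 0.20, adjusted p = 0.036) by edgeR, the highest of the 6. Psmc3, the lowest of the 6 (ENSMUSG00000002102, chr2:91054009-91066369, plus strand), was at 286 and 328 CPM in Control, 419 and 364 in LPS, 341 and 305 in AGE+LPS, and 213 and 305 in FruArg+LPS. LPS lay above Control without overlap, while FruArg+LPS replicate 1 was the lowest of all libraries. The log2 fold change of Psmc3 was 0.39 (SE 0.20, edgeR adjusted p = 0.19, and with the replicate block 0.38, adjusted p = 0.036, range over the alternatives 0.034 to 0.91), and -0.035 with library size scaling. Psmc3 shares 215 exon bases with Slc39a13 on the other strand. With the block, Psmc2, Psmc4, Psmc5 and Psmc6 rose by 0.62, 0.39, 0.42 and 0.61, with edgeR adjusted p = 0.0014, 0.034, 0.021 and 0.0011, where the fit without it gave 0.057, 0.16, 0.12 and 0.11. The median over the 6 ATPases was 0.52.

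Of the 12 other cap genes 5 rose: Psmd1, Psmd4, Psmd5, Psmd8 and Psmd11. Psmd11, a lid subunit that clamps cap to core (ENSMUSG00000017428, chr11:80428615-80473248, plus strand), was at 41.7 and 57.1 CPM in Control, 145 and 160.4 in LPS, 99.6 and 109 in AGE+LPS, and 114 and 144 in FruArg+LPS. Control was the lowest and LPS the highest group for Psmd11, with every co-treated library in between. It rose with LPS by 1.65 (SE 0.22, adjusted p = 0.00060) by edgeR, the second-largest value among the 36 members. The assembly chaperone Psmd5 and Psmd8, a lid subunit, rose by 1.01 and 1.01 with adjusted p = 0.0042 and 0.0095 by edgeR. Psmd4, a ubiquitin receptor, and Psmd1, a scaffold of the base, rose by 0.69 and 0.66 with edgeR adjusted p = 0.026 and 0.046.

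The lowest value among the cap subunits was that of Psmd6, a lid subunit (ENSMUSG00000021737, chr14:14112174-14120984, minus strand), at 161 and 189 CPM in Control, 160.2 and 194 in LPS, 146 and 201 in AGE+LPS, and 176 and 156 in FruArg+LPS. All 4 groups overlapped. The log2 fold change of LPS against Control was 0.05 (SE 0.21, adjusted p = 0.87) by edgeR and -0.37 with library size scaling. Psmd3, also of the lid, had a value of 0.06 and overlapped too. Apart from the ATPases, the remaining 5 cap subunits ranged from 0.34 for Psmd12 to 0.65 for Psmd14, the deubiquitinase of the lid, and were not called. With the replicate block Psmd2, Psmd7, Psmd13 and Psmd14 rose. Psmd13 shares 342 exon bases with Sirt3 on the other strand.

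The immunoproteasome genes were compared as the inducible counterparts of the catalytic sites. Psmb8, the counterpart of Psmb5, was at 113 and 119 CPM in Control, 464 and 426 in LPS, 249 and 195 in AGE+LPS, and 305 and 362 in FruArg+LPS. Psmb9, the counterpart of Psmb6, was at 27.4 and 40.2 CPM in Control, 169.7 and 143 in LPS, 85.3 and 56.5 in AGE+LPS, and 104 and 132 in FruArg+LPS. Psmb10, the counterpart of Psmb7, was at 97.1 and 134 CPM in Control, 678 and 489 in LPS, 218 and 181 in AGE+LPS, and 209 and 354 in FruArg+LPS. In all 3 genes the order was Control lowest and LPS highest, with both co-treated groups in between and no overlap with either. Their log2 fold changes of LPS against Control by edgeR were 1.98, 2.22 and 2.37, with adjusted p = 0.00014, 0.00019 and 0.00019. Psmb9 shares 212 exon bases with Tap1 on the other strand.

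Ratios within a library, which do not depend on scaling between libraries, were taken per kb of transcript as mean ± SD of 2 libraries and carry no test. The ratio of Psmb8 to Psmb5 was 0.671 ± 0.117 in Control, 2.06 ± 0.873 in LPS, 0.884 ± 0.20 in AGE+LPS and 1.11 ± 0.107 in FruArg+LPS. That of Psmb9 to Psmb6 was 0.0345 ± 0.00911 in Control, 0.0829 ± 0.00450 in LPS, 0.0432 ± 0.00712 in AGE+LPS and 0.0675 ± 0.00628 in FruArg+LPS. The ratio of Psmb10 to Psmb7 was 0.479 ± 0.0494 in Control, 1.60 ± 0.424 in LPS, 0.729 ± 0.213 in AGE+LPS and 1.07 ± 0.230 in FruArg+LPS. In each of the 3 pairs both LPS libraries had a higher ratio than both Control libraries. Set against the median of the 14 core genes, without copies, Psme2 was at 0.239 ± 0.00622 in Control, 0.723 ± 0.0126 in LPS, 0.611 ± 0.00536 in AGE+LPS and 0.606 ± 0.0344 in FruArg+LPS, and Psme1 at 0.467 ± 0.126 in Control, 0.944 ± 0.0170 in LPS, 0.606 ± 0.0146 in AGE+LPS and 0.696 ± 0.0100 in FruArg+LPS. With these lengths every co-treated library lay between the Control and LPS ratios for both genes. Without lengths, and with lengths over all exons, this held for some of these libraries and not for others.

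**Figure D2:**
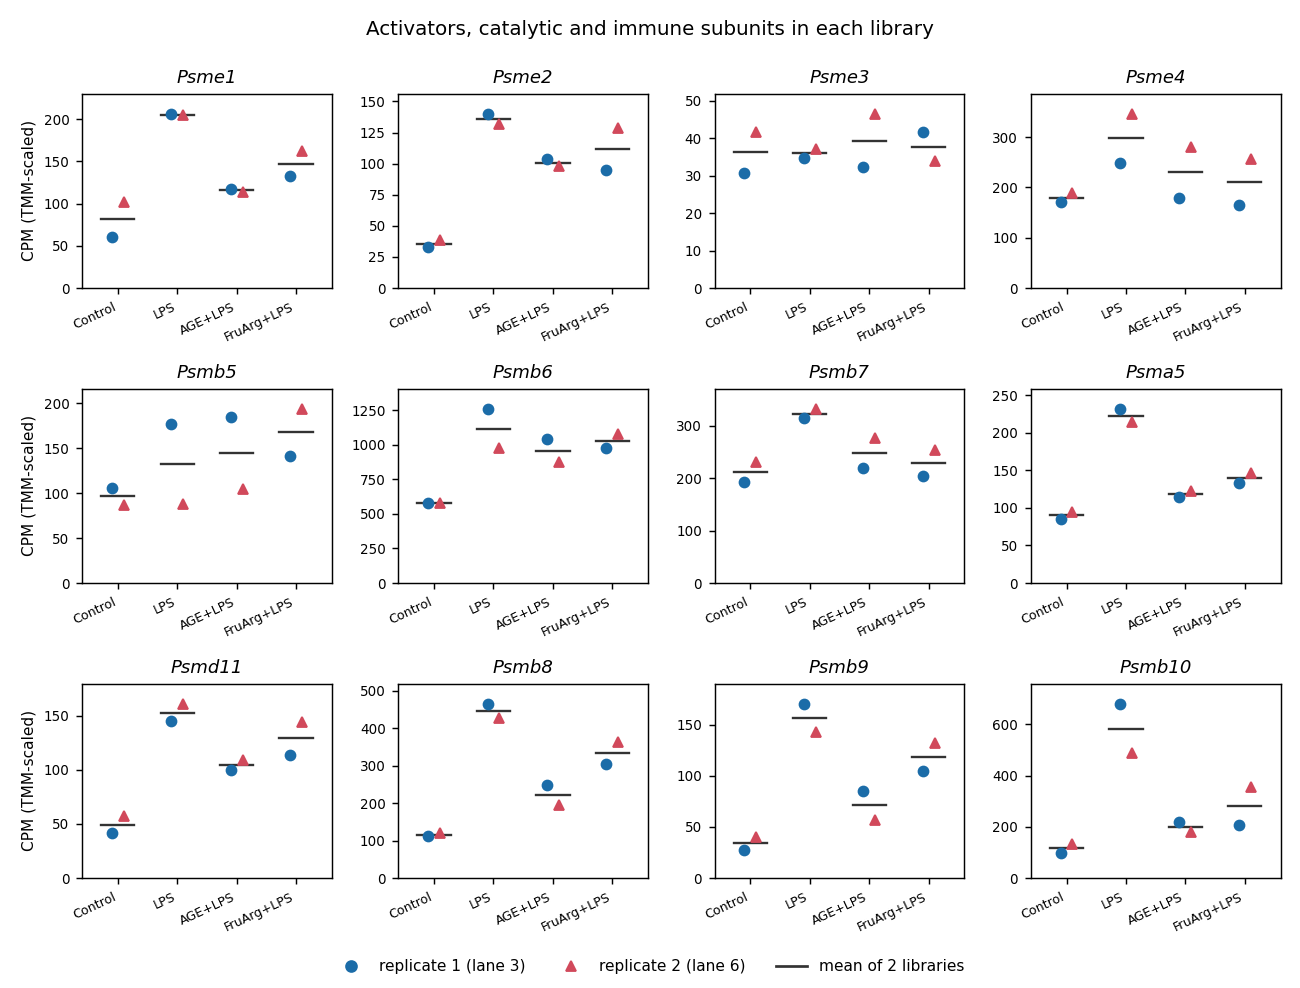
CPM of the 4 activators, the 3 catalytic subunits, Psma5, Psmd11 and the 3 immunoproteasome subunits in each of the 8 libraries, with the mean of 2 libraries as a line. Psme2, Psma5, Psmd11 and the immunoproteasome genes are lowest in Control and highest in LPS, while Psme3 overlaps in all 4 groups.

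Other genes that work with the complex were described from lists of 46 genes, of which 43 were tested. By edgeR 16 rose and 3 fell with LPS, where 16.3% of all genes rose and 14.3% fell. Of the assembly chaperones, Psmd10 rose by 1.56 (SE 0.22, adjusted p = 0.00072) in edgeR's test. Psmg1 was at -0.68 with edgeR adjusted p = 0.0496, just below the threshold, and was not called by DESeq2 (adjusted p = 0.096), with RLE, with a minimum of 1 count or without either Control library. Among proteasome-bound factors, Ecpas rose by 0.87 and the deubiquitinase Uchl5 fell, with -0.85, where adjusted p by edgeR was 0.012 and 0.021. Among 14 genes for ubiquitin, its shuttles and the unfoldase, Ubb, Uba6 and Rad23b rose, by 1.89, 0.89 and 0.72, with edgeR adjusted p = 0.00018, 0.029 and 0.022. With the replicate block 8 of the 14 were called, 7 up and 1 down, where 24.9% of all genes rose and 22.9% fell. Ecpas, Uba6 and Rad23b were not called with library size scaling or without either Control library, and Uchl5 was not called without Control replicate 2. Of 4 genes for the transcription of proteasome subunits, Nfe2l1, the factor that restores proteasome genes when activity is low, rose by 1.32 (SE 0.21, adjusted p = 0.0014) and its protease Ddi2 fell, with -1.08 (SE 0.24, adjusted p = 0.0078), by edgeR. Of 8 genes for loading peptides onto MHC class I, 6 rose, from 1.00 for the peptide trimmer Erap1 to 2.86 for the transporter subunit Tap1. The germline and thymus subunits Psma8 and Psmb11 were at 0 and at no more than 0.187 CPM and were not tested.

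The comparisons of each co-treatment with LPS asked whether the extract or the compound altered the response. They share the LPS libraries, so their values are set side by side. In AGE+LPS, 0 members were called by edgeR, where 0.796% of 12317 genes were called, with 5 members at an unadjusted p below 0.05, where 17.8% of genes were. DESeq2 called 2 members (Psma5 and Psme1, both lower) and 1.72% of its 21850 genes lower. Those 21850 include 9174 genes without an adjusted p, which could not be called. In FruArg+LPS, 0 members were called, as were 0.00% of 12071 genes, with 5 members at an unadjusted p below 0.05, where 12.8% of genes were. DESeq2 called 0 members there and 0.981% of its 21303 genes, which include 11632 without an adjusted p. With the replicate block, 23 members fell in AGE+LPS against 21.0% of genes, and 9 fell in FruArg+LPS against 9.36% of genes. The 23 included all 7 alpha genes, 3 beta genes, 4 base ATPases, 6 other cap genes and 3 activators, and the 9 were Psma2, Psma4, Psma5, Psmb7, Psmc3, Psmc6, Psmd12, Psme1 and Psme4. Negative log2 differences from LPS were seen in 32 of 36 members for AGE+LPS (27 with library size scaling) and 30 of 36 for FruArg+LPS (30 with library size scaling). The medians were -0.30 and -0.28, against -0.0005 and -0.01 over all genes tested. Library size scaling moved the median of all genes to 0.15 for AGE+LPS and to -0.008 for FruArg+LPS.

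By class, the median log2 difference of AGE+LPS from LPS was -0.32 for the core, -0.28 for the cap and -0.40 for the activators, and that of FruArg+LPS was -0.33, -0.25 and -0.37. Both AGE+LPS libraries lay below both LPS libraries in 20 members, against 23.3% of all genes, and above in 0, against 24.0%. For FruArg+LPS 19 members lay below, against 24.0%, and 0 above, against 23.2%. Scaled by library size alone, 11 members lay below in AGE+LPS (16.2% of all genes) and 20 in FruArg+LPS (24.3%), and 0 above in either (33.2% and 22.8%). Within lanes, 29 members were lower than LPS in both lanes for AGE+LPS, against 38.9% of all genes, and 24 for FruArg+LPS, against 36.1%. Without FruArg+LPS replicate 2, Psma4 and Psmc6 fell, as did 6.89% of genes. Within lane 3 the median difference of AGE+LPS was -0.32 and within lane 6 -0.28, and that of FruArg+LPS -0.44 and -0.18. The lane 3 value of FruArg+LPS rests on the library with the fewest genes detected, and the part this played was not tested.

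Of single members, Psma5 had the lowest value in AGE+LPS, -0.91 (SE 0.19, edgeR adjusted p = 0.076, and with the replicate block -0.91, adjusted p = 1.6e-13, range over the alternatives 1.6e-13 to 0.30). Psme1 followed at -0.82 (SE 0.19, edgeR adjusted p = 0.087, and with the replicate block -0.82, adjusted p = 8.4e-12, range over the alternatives 8.4e-12 to 0.32). Psme2 was at -0.43 (SE 0.19, edgeR adjusted p = 0.31, and with the replicate block -0.43, adjusted p = 0.00030, range over the alternatives 8.3e-06 to 0.74), and Psmd11 at -0.55 (SE 0.20, edgeR adjusted p = 0.21, and with the replicate block -0.55, adjusted p = 3.1e-06, range over the alternatives 3.1e-06 to 0.71). In these 4 genes both AGE+LPS libraries lay below both LPS libraries. In FruArg+LPS the lowest value was that of Psma4, -0.91 (SE 0.27, edgeR adjusted p = 0.27, and with the replicate block -0.91, adjusted p = 9.5e-05, range over the alternatives 8.2e-05 to 0.96). Psma5 was at -0.67 (SE 0.23, edgeR adjusted p = 0.30, and with the replicate block -0.67, adjusted p = 0.0034, range over the alternatives 0.0011 to 1.0) and Psme1 at -0.47 (SE 0.23, edgeR adjusted p = 0.42, and with the replicate block -0.48, adjusted p = 0.042, range over the alternatives 0.014 to 1.0). Psma4, Psma5 and Psme1 were below LPS in both FruArg+LPS libraries. The catalytic genes Psmb5 and Psmb6 were at 0.13 and -0.22 in AGE+LPS and 0.35 and -0.11 in FruArg+LPS, with libraries that overlapped LPS. The third, Psmb7, was below LPS without overlap in both groups, at -0.38 (SE 0.21, edgeR adjusted p = 0.42, and with the replicate block -0.39, adjusted p = 0.00061, range over the alternatives 0.00061 to 0.93) in AGE+LPS and -0.49 (SE 0.24, edgeR adjusted p = 0.41, and with the replicate block -0.50, adjusted p = 0.040, range over the alternatives 0.038 to 1.0) in FruArg+LPS.

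For the immunoproteasome, Psmb8, Psmb9 and Psmb10 were below LPS in both AGE+LPS libraries, with log2 differences of -1.0, -1.14 and -1.55. The test gave edgeR adjusted p = 0.080, 0.087 and 0.053 for Psmb8, Psmb9 and Psmb10. With the replicate block all 3 fell, and DESeq2 called all 3. In FruArg+LPS the values were -0.41, -0.40 and -1.04, with edgeR adjusted p = 0.46, 0.49 and 0.27, and Psmb10 fell with the block. Of the 43 related genes tested, 0 were called by edgeR in either comparison, with 15 at an unadjusted p below 0.05 in AGE+LPS, against 17.8% of all genes, and 3 in FruArg+LPS, against 12.8%. The co-treatments are compared with each other further below.

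The comparisons of co-treated cells with Control, which share the Control libraries with LPS against Control, asked which members differed from untreated cells when LPS was given with the extract or the compound. In AGE+LPS 4 members rose, against a background of 10.5% of genes: Psme2 by 1.51, Psmd11 by 1.08, Psmd5 by 0.87 and Psmb6 by 0.75, with edgeR adjusted p = 0.0011, 0.0081, 0.016 and 0.034. With the replicate block 12 rose, against 20.2%, among them Psme1, Psma5 and Psmb5. In FruArg+LPS 8 members rose, against 12.8% of genes: Psme2 by 1.67, Psmd11 by 1.40, Psmd5 by 1.04, Psme1 by 0.87, Psmb6 by 0.86, Psmb5 by 0.83, Psmd8 by 0.76 and Psma5 by 0.65. The edgeR adjusted p of these ranged from 0.0019 to 0.047. Psma5 was not called by DESeq2, with a minimum of 1 count or with copies added, Psme1 was not with copies added, and Psmb5 was not in one fit of all 4 groups. With the block 12 rose, against 18.9%, and 1 fell, Psmd12, against 15.5%.

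The median log2 fold change against Control was 0.27 in AGE+LPS (0.27 core, 0.26 cap and 0.44 activators) and 0.24 in FruArg+LPS (0.29 core, 0.24 cap and 0.56 activators), where all genes were at 0.01 and 0.002. With library size scaling, which moved the median of all genes to -0.24 and -0.40, the median of FruArg+LPS was -0.11 for the core and -0.17 for the cap, 2 members rose in AGE+LPS (7.41% of all genes), and 3 rose (7.61%) and 2 fell (22.0%) in FruArg+LPS. The 2 that fell were Psma4 and Psmd12. Libraries did not overlap and were higher in 18 members for AGE+LPS, against 28.2% of all genes, and in 20 for FruArg+LPS, against 30.6%. They were lower in 0 members for AGE+LPS (30.7%) and in 1, Psma4, for FruArg+LPS (33.0%). Scaled by library size alone, 6 members were higher (18.3%) and 4 lower (44.0%) in AGE+LPS, and 9 higher (17.0%) and 12 lower (52.4%) in FruArg+LPS. Leaving out a library moved the count between 1 (without Control replicate 1, where 14.2% of genes were called) and 7 (without AGE+LPS replicate 2, 25.7%) in AGE+LPS and between 2 (without Control replicate 1, 14.2%) and 12 (without FruArg+LPS replicate 2, 39.9%) in FruArg+LPS. Without Control replicate 2 the counts were 2 and 4, against 10.9% and 11.9% of genes. The 3 immunoproteasome genes rose in both comparisons, with medians of 0.96 and 1.55. Without Control replicate 1, 0 of the 3 were called in AGE+LPS by edgeR (2 at an unadjusted p below 0.05), and 1 was without Control replicate 2.

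The direct comparison of FruArg+LPS with AGE+LPS asked whether the compound and the extract differed. By edgeR 0 members were called, as were 0.00% of 11915 genes, with 0 members at an unadjusted p below 0.05, where 5.61% of genes were, and 0 by DESeq2; with the replicate block 0 members were called, against 3.20% of genes. The log2 differences ranged from -0.42 for Psma4 to 0.38 for Psmb2, with a median of -0.03, and 7 members were higher and 3 lower without overlap between groups, against 18.4% and 18.1% of all genes. Scaled by library size alone, 3 were higher (9.74% of all genes) and 9 lower (29.6%). A p above the threshold does not show that the members were alike.

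**Figure D3:**
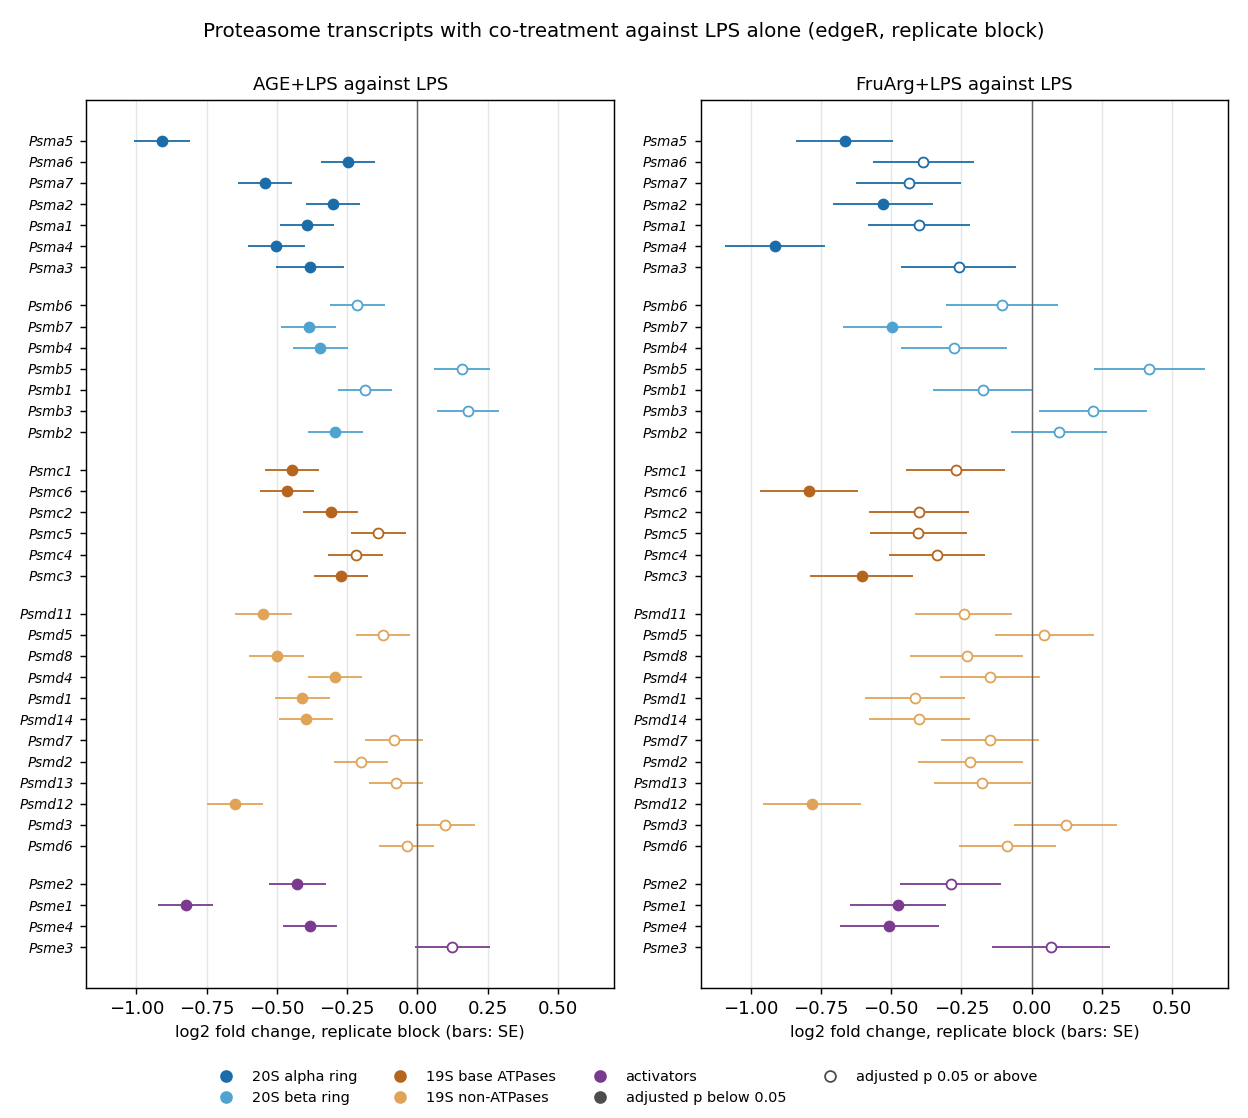
Log2 difference from LPS of the 36 members in AGE+LPS and in FruArg+LPS, which share the LPS libraries. Values and standard errors come from the edgeR fit with the replicate block. Filled points passed in that fit, 23 in AGE+LPS and 9 in FruArg+LPS, where 21.0% and 9.36% of all genes fell. Without the block, 32 of 36 values were negative in AGE+LPS (27 with library size scaling) and 30 of 36 in FruArg+LPS. In that fit, with TMM scaling of each pair, its default filter and all libraries, 0 members passed the edgeR test.

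Promoter sequences were read because core, cap and activator genes were among the 15 that rose with LPS. RefSeq windows of 250 bases before to 50 bases after a start on build GRCm38.p6 were found for 30 of the 36 members, 33 windows in all, and searched on both strands for the antioxidant response element core (TGACNNNGC), the interferon-stimulated response element (ISRE, GAAANNGAAA) and the GAS element (TTCNNNGAA). The antioxidant core was in 5 of 33 member windows (15.2%: Psmb5, Psmb6, Psmc6, Psmd12 and Psme4), against 12.4% of 32851 windows. The ISRE was in 3 (9.09%: Psmb3, Psmd4 and Psme1), against 3.44%, and the GAS element in 1 (3.03%: Psmd2), against 8.30%. Of the 3 immunoproteasome windows, 0 held the ISRE and 1 held the GAS element (Psmb8). A match describes letters only. The windows of Psme1 (chr14:55578244-55578543, plus strand), with the ISRE in capitals, and Psmb8 (chr17:34197945-34198244, plus strand), with the GAS element in capitals, are shown as the ones that hold a match among the interferon-linked genes named above, and those of Psmb5 (chr14:54617946-54618245, minus strand), Psmb6 (chr11:70525107-70525406, plus strand) and Psmc6 (chr14:45329574-45329873, plus strand), with the antioxidant core in capitals, as core and cap examples. The matches in Psme1 and Psmc6 lie on the strand opposite to the one printed. The GENCODE starts of Psme1 and Psmb8, at 55578123 and 34197721, lie before the first base of these windows.
Psme1: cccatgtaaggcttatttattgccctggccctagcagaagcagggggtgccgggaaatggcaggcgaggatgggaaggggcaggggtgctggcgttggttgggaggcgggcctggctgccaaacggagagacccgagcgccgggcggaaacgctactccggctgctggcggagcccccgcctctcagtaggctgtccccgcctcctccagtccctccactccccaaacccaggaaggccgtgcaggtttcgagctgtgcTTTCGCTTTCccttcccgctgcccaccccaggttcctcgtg
Psmb8: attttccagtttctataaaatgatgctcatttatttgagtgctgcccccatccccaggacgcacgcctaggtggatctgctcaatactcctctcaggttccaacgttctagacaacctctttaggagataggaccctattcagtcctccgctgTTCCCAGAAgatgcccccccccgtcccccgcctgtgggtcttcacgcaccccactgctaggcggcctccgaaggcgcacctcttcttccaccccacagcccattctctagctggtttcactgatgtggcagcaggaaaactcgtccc
Psmb5: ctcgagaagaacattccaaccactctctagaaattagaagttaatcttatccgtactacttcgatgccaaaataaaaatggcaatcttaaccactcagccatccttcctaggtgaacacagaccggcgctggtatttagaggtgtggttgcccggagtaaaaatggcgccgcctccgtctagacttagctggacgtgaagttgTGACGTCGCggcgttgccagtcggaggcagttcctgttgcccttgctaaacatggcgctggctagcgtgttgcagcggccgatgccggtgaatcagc
Psmb6: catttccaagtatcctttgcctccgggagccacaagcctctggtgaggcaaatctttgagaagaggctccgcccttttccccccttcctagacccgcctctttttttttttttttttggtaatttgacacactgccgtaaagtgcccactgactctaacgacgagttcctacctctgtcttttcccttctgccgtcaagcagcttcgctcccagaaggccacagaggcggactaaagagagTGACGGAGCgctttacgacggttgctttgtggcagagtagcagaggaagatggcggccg
Psmc6: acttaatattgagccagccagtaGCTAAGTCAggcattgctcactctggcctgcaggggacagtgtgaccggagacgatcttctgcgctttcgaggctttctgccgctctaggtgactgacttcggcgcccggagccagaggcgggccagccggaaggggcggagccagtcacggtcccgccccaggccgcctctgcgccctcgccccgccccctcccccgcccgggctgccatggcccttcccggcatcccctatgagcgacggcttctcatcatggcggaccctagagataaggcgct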

How the data were processed

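Per the labels and the study's methods, the authors trimmed reads with fastx_toolkit, aligned them with TopHat2 to GRCm38 and counted them per Ensembl gene with featureCounts, and deposited raw counts. Tool versions, strand use, treatment of multi-mapping reads and annotation release are not given in the sources used here, and the labels name RNeasy for the RNA extraction where the methods name TRIzol. The counts were matched to GENCODE M21 (45229 of 46078 genes), and Paaf1 was not matched. Each pair of groups was fitted alone with edgeR 4.0.16 (filterByExpr, TMM, quasi-likelihood test) in R 4.3.3, with Benjamini-Hochberg adjustment over all genes tested and no block. The study's methods name DESeq2 with a minimum fold change and mention no block. A gene was called at an adjusted p below 0.05. Alternatives were RLE size factors, library size scaling, DESeq2 1.42.0, a minimum of 1 count, a block for the replicate number, one fit of all 4 groups, a fold of at least 2, and leaving out each library. With a library left out, its group held 1 library, so the spread came from the other group of the pair alone. Added after seeing the data were counts of copies found with blastn 2.17.0, with and without the block, and lengths over all exons. Replicate numbers pair the libraries by lane in the labels, and deviations of same-numbered libraries from their group means correlated across 12873 genes, with r from 0.244 (Control with FruArg+LPS) to 0.628 (LPS with AGE+LPS). Genes are not independent replicates. The members and lists were chosen with earlier results of these data known. Values in every library were given for the activators, the catalytic subunits, and the members with the highest and lowest fold change of LPS against Control in each other class. Of the related lists, up to 6 of the genes called in that comparison were named in each. Promoters shown were those of Psme1, Psme2 and the immunoproteasome genes that hold a motif and up to 3 core or cap genes with the antioxidant core. The procedure was tested on simulated data. Python 3.11.15 and matplotlib 3.10.9 were used.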

Additional observations from a re-analysis of the deposited data

How the results depend on the processing

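With 2 libraries a group and Control replicate 1 the shallowest at 2707500 counts, the counts of members called moved with most settings, and the cause was not tested. For LPS against Control, 15 members were called, 5 with library size scaling, 29 with the replicate block, 30 with copies added and the block (25.1% of all genes rose), 6 at a fold of at least 2, and 4 to 21 with a library left out (10.3% and 18.6% rose). For AGE+LPS against Control, 4 were called, 2 with library size scaling, 12 with the block, 12 with copies and the block (20.3% rose), 2 at a fold of at least 2 (7.64%), and 1 to 7 with a library left out. For FruArg+LPS against Control, 8 were called, 5 with library size scaling, 13 with the block, 13 with copies and the block (34.4% called), 3 at a fold of at least 2 (9.59% rose), and 2 to 12 with a library left out. For AGE+LPS against LPS, edgeR called 0 (5 at an unadjusted p below 0.05), DESeq2 2, a minimum of 1 count 2 (5.41% called), one fit 1 (3.33%), the block 23, copies and the block 23 (20.9% fell), and any library left out 0. For FruArg+LPS against LPS, edgeR called 0 (5 at an unadjusted p below 0.05), DESeq2 0, a minimum of 1 count 1 (2.53% called), the block 9, copies and the block 10 (9.44% fell), and 0 to 2 with a library left out. For FruArg+LPS against AGE+LPS the count was 0 in each of these settings (0 at an unadjusted p below 0.05 by edgeR, and 0 by DESeq2). Of the genes with values in every library, Psma3, Psmb7, Psmc1, Psmc3 and Psme4 were among the 23 that fell with the replicate block in AGE+LPS against LPS, and apart from the genes named here and in the results the block changed no other call among them.

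Of the related lists in LPS against Control, the assembly chaperones had 2 called (1 with RLE, 1 to 3 with a library left out), bound factors 2 (0 to 3 with a library left out), shuttles and ubiquitin 4 (2 with library size scaling, 8 with the block, 8 with copies and the block, 2 to 6 with a library left out) and transcription 2 (1 to 3 with a library left out). The 3 immunoproteasome calls of AGE+LPS against Control were 1 with library size scaling and 0 to 3 with a library left out. Against LPS, AGE+LPS had 0 immunoproteasome genes called by edgeR (3 at an unadjusted p below 0.05), 3 by DESeq2, 3 with a minimum of 1 count, 2 in one fit, 3 with the block, 3 with copies and the block, and 1 to 2 with a library left out. FruArg+LPS had 0 called by edgeR (1 at an unadjusted p below 0.05), 1 by DESeq2 and 1 with a minimum of 1 count. It also had 1 with the block, and 1 with copies and the block. Shares of all genes called moved with the setting too, given here with the edgeR test first. LPS against Control had 30.6%, 38.3% with library size scaling and 47.8% with the block. AGE+LPS against LPS had 0.796%, 2.83% by DESeq2, 5.41% with a minimum of 1 count, 3.33% in one fit and 40.3% with the block. FruArg+LPS against LPS had 0.00%, 0.981% by DESeq2, 2.53% with a minimum of 1 count and 17.6% with the block.

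Directions changed with library size scaling in LPS against Control for Psma3 (-0.094), Psmb2 (-0.16), Psmb3 (-0.052), Psmc3 (-0.035), Psmc4 (-0.029), Psmd3 (-0.36), Psmd6 (-0.37), Psmd12 (-0.084) and Psme3 (-0.41), and for Psme3 in one fit (-0.026). It gave FruArg+LPS against Control medians of -0.11 for the core and -0.17 for the cap, and 0.12 for Psmd6 in AGE+LPS against LPS. Between FruArg+LPS and AGE+LPS it moved the medians to -0.11 for the core and -0.097 for the activators, and the shift of all genes was -0.15. Copies and the block gave an activator median of -0.047 there. With a library left out, LPS against Control ranged from -0.073 to 0.73 for Psma3, -0.021 to 0.69 for Psmb3, -0.085 to 0.93 for Psmb5, -0.11 to 0.23 for Psmd3, -0.087 to 0.19 for Psmd6 and -0.18 to 0.24 for Psme3. AGE+LPS against LPS ranged from -0.14 to 0.37 for Psme3, -0.33 to 0.73 for Psmb5, -0.86 to 0.023 for Psma3 and -0.27 to 0.18 for Psmd6. FruArg+LPS against LPS ranged from -0.077 to 0.22 for Psme3, -0.076 to 0.92 for Psmb5, -0.29 to 0.061 for Psmb6, -0.62 to 0.11 for Psma3 and -0.24 to 0.054 for Psmd6. Medians of FruArg+LPS against AGE+LPS ranged from -0.17 to 0.11 for the cap and -0.064 to 0.26 for the activators. Set against the median of the core without lengths, Psme2 was at 0.477 and 0.413 in LPS, 0.483 and 0.350 in AGE+LPS, and 0.495 and 0.485 in FruArg+LPS, and Psme1 at 0.329 and 0.456 in Control, 0.702 and 0.639 in LPS, 0.548 and 0.406 in AGE+LPS, and 0.692 and 0.613 in FruArg+LPS. Over all exons Psme2 was at 0.648 and 0.606 in LPS, 0.674 and 0.533 in AGE+LPS, and 0.533 and 0.666 in FruArg+LPS, and Psme1 at 0.372 and 0.546 in Control and 0.610 and 0.493 in AGE+LPS. These alternatives for the lengths, and library size scaling for groups that do not overlap, were chosen after seeing the data. The Psmb8 to Psmb5 ratio was 1.21 in Control and 3.73 in LPS without lengths, and 0.323 and 0.992 over all exons. Psmb9 to Psmb6 was 0.0585 and 0.140 without lengths, and 0.0718 in LPS over all exons. Psmb10 to Psmb7 was 0.542 in Control without lengths, and 1.09 and 3.64 over all exons.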
